A study of Drosophila melanogaster with 6 samples.

Results

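Long noncoding RNAs are transcripts that are capped, often spliced and polyadenylated like messenger RNAs but carry no recognised protein reading frame. In flies they include the primary transcripts from which Drosha cuts microRNA precursors, inverted repeats that fold into long hairpins and feed the Dicer-2 siRNA pathway, host transcripts of small nucleolar RNAs, and antisense transcripts that run across coding genes. Their levels were measured here in Drosophila melanogaster S2 cells with and without Tailor. FlyBase gives a CR name to a gene without a protein product, and the RNAs described were chosen by that name (CR followed by digits) and by a mean level over the 6 libraries of at least 0.5 FPKM (fragments scaled by transcript length and by library size). This gave 55 of the 274 CR-named genes and of 14210 genes listed in all. The other 219 CR genes lay below the level, 116 of them at 0 in every library.

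S2 is a cell line grown from late fly embryos, with features of blood cells (hemocytes). Tailor, encoded by CG1091, is a nucleotidyltransferase that extends RNA 3′ ends with uridines, and hairpin RNAs are the substrates named in the title of the series. Polyadenylated RNA was sequenced from 3 libraries of wild-type S2 cells and 3 of S2 cells whose CG1091 gene had been disrupted with CRISPR/Cas9. The sources used here do not say whether the knockout cells were 1 clone, or whether wild-type RNA came from independent cultures, so p-values measure the spread between these libraries only.

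CG1091 itself was read in every library before the other genes. It stood at 50.7, 51.2 and 47.7 FPKM in wild type and, in the knockout, at 22.3, 26.1 and 26.1 FPKM, a log2 difference of -0.98 (SE 0.0636, limma adjusted p = 3.55e-07). The knockout libraries were all lower than all 3 wild-type libraries, and mRNA remained in each. Depth, as fragment numbers recovered from the interval around each FPKM, was between 18411800 and 22957800 per library. Of the 10 listed hemocyte marker genes, 8 were at 1 FPKM or more, and their summed level ran from 797 to 1065 FPKM in wild-type and from 964 to 1034 FPKM in knockout libraries. Hml and He, defining hemocyte markers, averaged 0.398 and 0.584 FPKM in wild type and 1.52 and 1.55 FPKM in the knockout. Ppn, srp, crq, eater and Sr-CI also had a higher mean in the knockout. Pxn went the other way, from 3.12 to 1.47 FPKM, as did Cg25C, from 322 to 312, and vkg, from 252 to 249 FPKM. Muscle and gut lists held 0 genes at 1 FPKM or more over the 6 libraries. The muscle list ran from 0.555 to 0.795 FPKM in wild-type and from 1.14 to 1.24 FPKM in knockout libraries, and the gut list was at most 0.0608 and 0.0969 FPKM. The neuron list, through elav and brp, ran from 15.2 to 17.8 FPKM in wild-type and from 16.4 to 18.0 FPKM in knockout libraries. The germ line list summed to 3.02 to 3.38 and 3.69 to 4.58 FPKM and the ovarian soma list to 3.48 to 4.10 and 5.06 to 6.17 FPKM, with the defining ovarian gene tj at 0. The part of these differences in the results was not tested.

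Of the 55 RNAs, 26 rose in the knockout, 7 fell and 22 did not pass an adjusted p of 0.05 in limma. All 7611 genes at or above the same level were tested together on log2(FPKM + 1), and 61.0% of them were called, 30.0% higher and 31.0% lower. The share of these RNAs called, 60.0%, was therefore that of genes in general, while 47.3% of them were called higher and 12.7% lower. Among the 1330 tested genes of 0.5 to 5 FPKM, 49.7% were called, 32.4% higher and 17.3% lower. Among the 3709 tested genes below the median exon length, 60.3% were called, 21.7% higher and 38.6% lower. The median log2 difference of the 55 was 0.24, beside -0.0022 over all tested genes, and 37 of the 55 were above 0. In bulk RNA, fewer cells that express a gene and less RNA per cell cannot be told apart.

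The level rule used the mean over both groups, so an RNA could be included through the group in which it was high. For 6 of the 55 the wild-type mean was under 0.5 FPKM and the knockout mean above it, and for 0 of them the reverse held. Those 6 were CR17025, CR43651, CR43650, CR43471, CR43399 and CR33218. The remaining 49 were at the level in both groups, with 22 higher, 7 lower and 20 not called. Just inside the level were CR33218, with a mean of 0.532 FPKM, and CR43471, with 0.574 FPKM. Just outside were CR43464 at 0.488 FPKM, with 0.251 ± 0.0355 in wild type and 0.725 ± 0.108 in the knockout (SD, n = 3), and CR43279 at 0.477 FPKM, with 0.571 ± 0.259 and 0.382 ± 0.222.

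**Figure D1:**
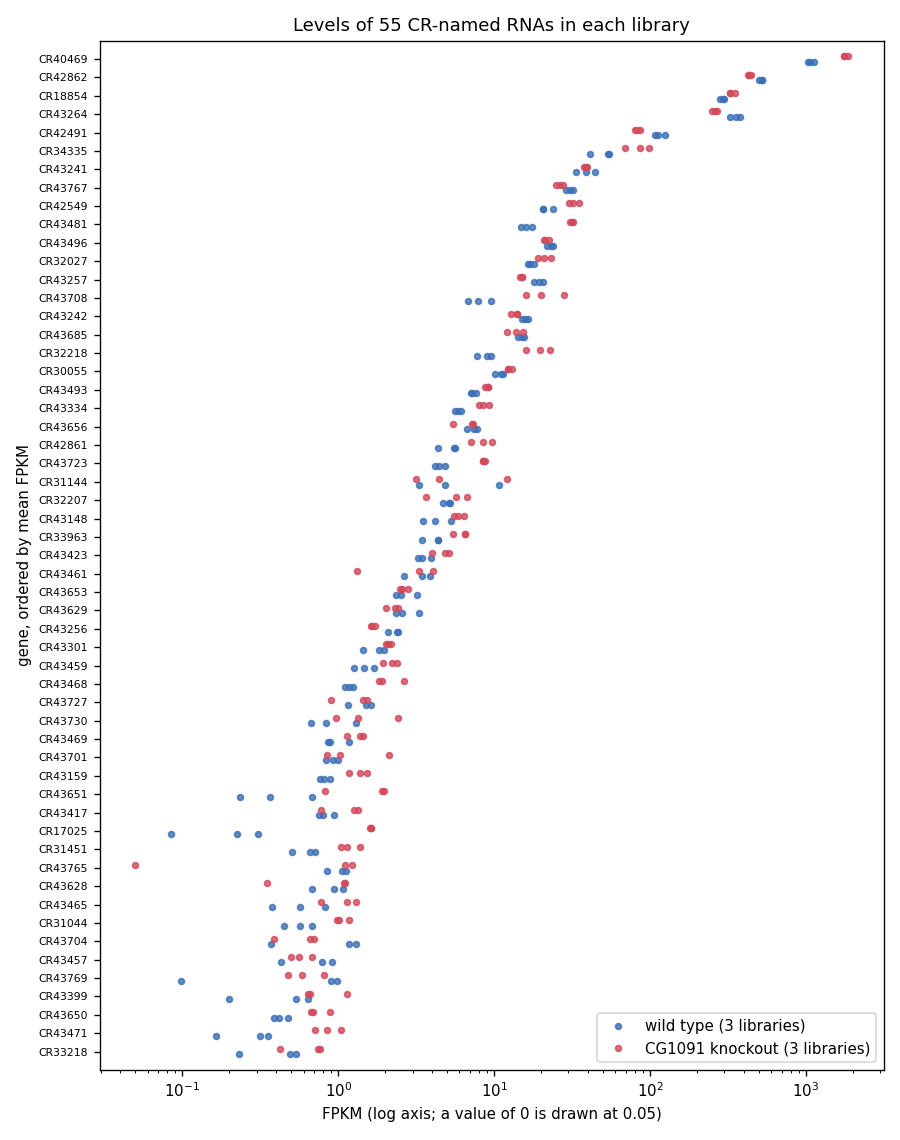
Level of each of the 55 RNAs in each library, in FPKM on a log axis, with genes ordered by their mean (blue points: 3 wild-type libraries; red points: 3 knockout libraries; a value of 0 is drawn at 0.05). CR40469 leads with at least 1035 FPKM in every library, and the spread between libraries of 1 group widens toward the lower end.

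The 55 RNAs spanned a wide range of levels, and 1 short transcript held much of their sum. CR40469, a lncRNA of 214 nt near the end of the X chromosome (18880 to 19093, plus strand, in the files' own coordinates), ranked 93rd among all tested genes. It stood at 1133, 1035 and 1059 FPKM in wild type and at 1868, 1763 and 1749 FPKM in the knockout. All 3 knockout libraries were far above all 3 wild-type libraries, a 1.67-fold rise (log2 0.74, SE 0.0495, adjusted p = 4.62e-07) resting on 3908 to 7529 fragments per library. It overlaps no other listed gene, and the nearest, CG17636, is 1663 nt away. The summed level of the 55 RNAs ran from 2699 to 2728 FPKM across wild-type libraries and from 3292 to 3413 FPKM across knockout libraries. Without CR40469 the sum was 1595 to 1664 FPKM and 1542 to 1622 FPKM, so that the groups overlapped.

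The second RNA by level fell. CR42862 lies on chromosome 3L (224106 to 230964, plus strand), with 5485 nt of annotated exon. It stood at 499, 525 and 521 FPKM in wild type and at 433, 424 and 442 FPKM in the knockout (log2 -0.25, SE 0.0389, adjusted p = 0.000252). The knockout libraries were all below the wild-type ones. Because of its length this RNA held 64.5% to 65.7% of all fragments of the 55 RNAs in wild-type libraries and 54.8% to 57.6% in knockout libraries. It shares 1500 nt with CG33229 on the same strand, and CG33229 rose from 38.4 ± 1.07 to 57.8 ± 1.69 FPKM (log2 0.58, adjusted p = 1.28e-06), the opposite direction.

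Among the next 4 by level, 2 fell and 2 rose. CR43264, a lncRNA of 318 nt on X, stood at 328, 379 and 358 FPKM in wild type and 251, 268 and 263 FPKM in the knockout (log2 -0.44, adjusted p = 3.68e-05). Its groups did not overlap, and CG15765, which runs across it on the other strand, was near 0 (0.0065 FPKM on average). CR34335, on X with 11701 nt to the nearest gene, stood at 53.8, 54.6 and 41.1 FPKM in wild type and 86.4, 98.4 and 68.7 FPKM in the knockout (log2 0.75, SE 0.153, adjusted p = 0.00416). Every knockout library was higher, with the third library lowest in both groups. In the BDGP6 annotation its span lies across DIP-alpha, on the same strand. CR18854 and CR42491 are described below with the hairpin and snoRNA transcripts.

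**Figure D2:**
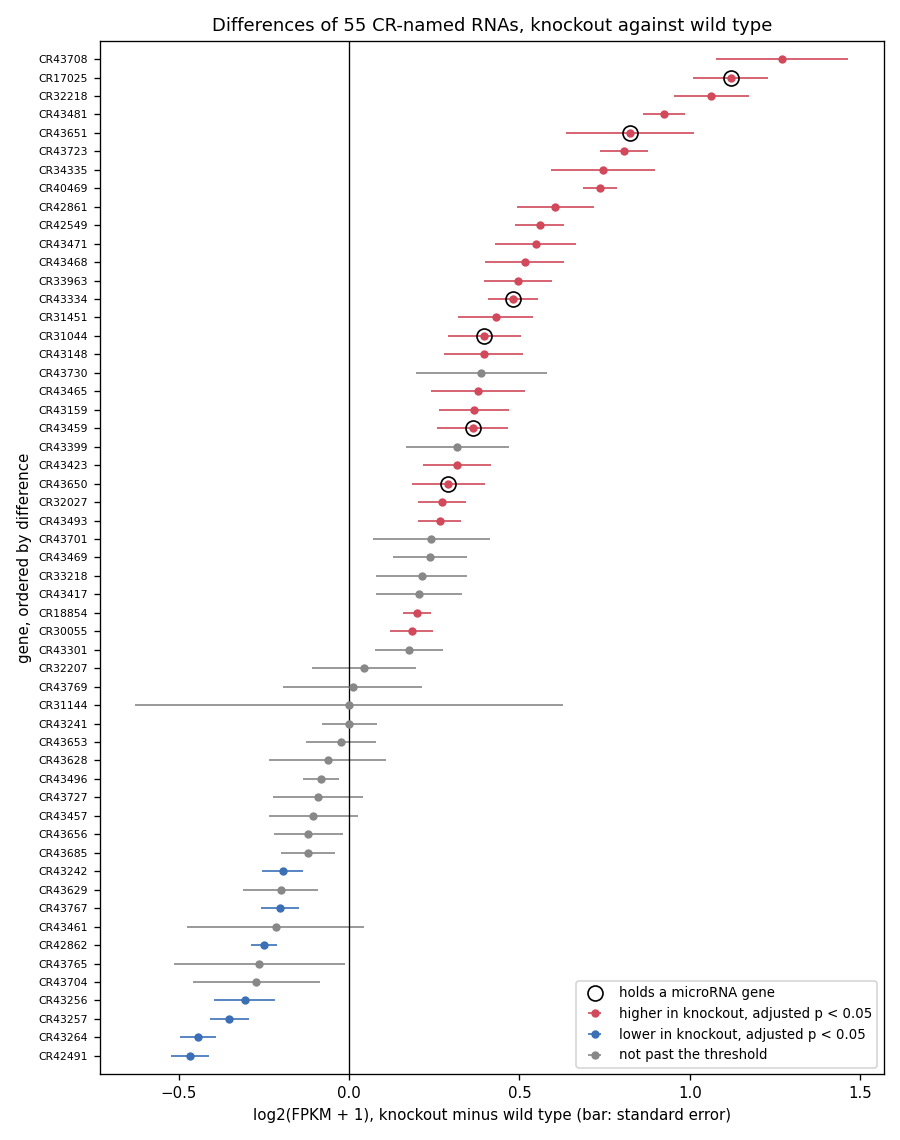
Difference of each of the 55 RNAs between knockout and wild type on log2(FPKM + 1), with its standard error (red: called higher, 26; blue: called lower, 7; grey: not past the threshold, 22; circles: RNAs that hold a microRNA gene). The 6 circled RNAs lie to the right of 0, where the level rule alone placed CR17025, CR43651 and CR43650. The largest fall, CR42491 at -0.47, is smaller in size than the 10 largest rises.

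Primary microRNA transcripts form a group of 6 among the 55. A microRNA starts as a hairpin within a long primary transcript, and Drosha cuts the hairpin out in the nucleus, so a polyadenylated library reports transcript that has not been cut or its remaining pieces, and not the mature microRNA. By the RefSeq annotation, 6 of the 55 RNAs hold 8 microRNA genes, all on the strand of the transcript. CR17025, CR43651 and CR43650 had reached the level through the knockout libraries and so had to be higher there, whatever their test. The 3 at the level in both groups, CR43334, CR43459 and CR31044, were all called higher, where 30.0% of all tested genes were. The Ensembl annotation also places mir-9381 within CR31451, described further on. CR31044 and CR43650 fall outside the rule for named genes and were added after their values were seen.

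CR43334, the primary transcript of bantam, a growth-promoting microRNA that restrains cell death, was the most abundant of these. It lies on chromosome 3L (628435 to 643900, plus strand), and stood at 5.64, 6.13 and 5.90 FPKM in wild type and 9.34, 8.47 and 8.05 FPKM in the knockout. The groups were well apart, with a 1.46-fold difference (log2 0.48, SE 0.0734, adjusted p = 0.000219) on 1660 to 2875 fragments per library. CR43423, which shares 1083 nt with it on the other strand, also rose, from 3.55 ± 0.344 to 4.67 ± 0.610 FPKM (log2 0.32, adjusted p = 0.0183). In the authors' deposited table its adjusted p was 0.164.

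CR43459 carries mir-277 and mir-34, a cluster of microRNAs studied in fly ageing, and lies on chromosome 3R (5919484 to 5925937, plus strand). It stood at 1.26, 1.69 and 1.47 FPKM in wild type and at 1.93, 2.23 and 2.39 FPKM in the knockout (log2 0.36, SE 0.104, adjusted p = 0.0111). Each knockout library was above each wild-type library. The adjusted p was 0.0868 with quantile normalization and 0.251 with voom on recovered fragments (0.00589 to 0.251 over all alternatives). Fmr1, the nearest gene at 1204 nt, was 0.02 on the log2 scale (adjusted p = 0.765).

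CR17025, the primary transcript of mir-252 on 3R (9281233 to 9291828, minus strand), had the largest fold difference. It stood at 0.307, 0.0847 and 0.224 FPKM in wild type and at 1.595, 1.62 and 1.62 FPKM in the knockout (log2 1.12, SE 0.109, adjusted p = 8.26e-06), with the groups far apart. The FPKM means differed 7.84-fold, but rested on 1.67 to 2.68 effective fragments in each wild-type library and 11.3 to 13.1 in each knockout library. Summed over libraries, the ratio of 36 to 7 effective fragments per library total was 5.59. Its 95% interval of 2.45 to 14.9, computed as for exact counts, covers counting error only and is approximate, since the gene has 2 transcripts.

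CR43651 carries mir-14, a microRNA known for suppressing cell death, and stood at 0.234, 0.367 and 0.684 FPKM in wild type and 0.830, 1.96 and 1.91 FPKM in the knockout (log2 0.82, SE 0.188, adjusted p = 0.00308). The highest wild-type and the lowest knockout library lay close together. The ratio of 85 to 20 effective fragments per library total was 4.62. Its 95% interval of 2.81 to 7.94, computed as for exact counts, covers counting error alone and is approximate, since the gene has 2 transcripts.

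CR31044 holds mir-279 and mir-996, regulators of sensory neuron formation, and stood at 0.569, 0.447 and 0.681 FPKM in wild type and 1.01, 1.18 and 0.990 FPKM in the knockout (log2 0.40, adjusted p = 0.00829). CR43650 holds mir-8, the fly member of the miR-200 family, and stood at 0.390, 0.416 and 0.476 FPKM in wild type and 0.885, 0.675 and 0.688 FPKM in the knockout (log2 0.29, adjusted p = 0.0352). In both the groups did not overlap. The call of CR43650 was lost in 8 of the other settings tried, including 5 of the 6 that left out a library, with adjusted p-values of 0.000479 to 0.289 over all of them, and that of CR31044 with quantile normalization (adjusted p = 0.067, 0.00016 to 0.067 over its alternatives). With quantile normalization 3 of the 6 remained past the threshold, CR43334, CR17025 and CR43651. Of these, CR17025 and CR43651 had reached the level through the knockout libraries. Among the 3 at the level in both groups, only CR43334 remained.

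Another 5 CR genes with microRNA genes inside lay below the level and were not tested. CR43626, with mir-282, averaged 0.304 ± 0.0799 FPKM in wild type and 0.609 ± 0.239 in the knockout, and the ranges overlapped. CR43314, with mir-bft, averaged 0.152 ± 0.0198 and 0.186 ± 0.0737 FPKM. CR42721, CR43270 and CR43344, the let-7 cluster transcript, were listed at 0 in every library.

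**Figure D3:**
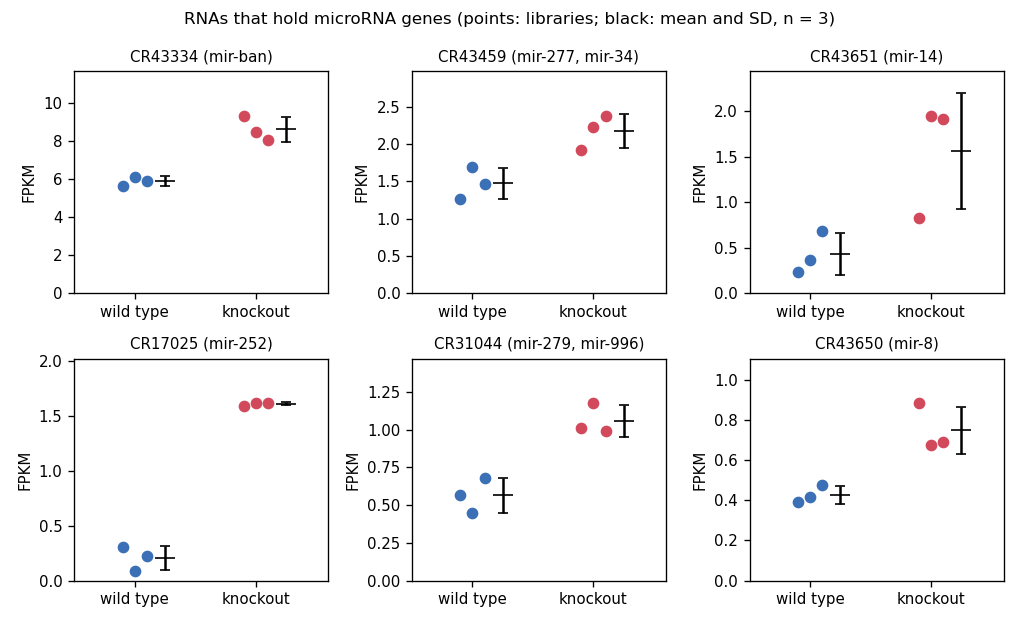
FPKM of the 6 RNAs that hold microRNA genes, by library (blue: wild type; red: knockout; black: mean and SD, n = 3), each panel with its own axis from 0. In every panel the lowest knockout library is above the highest wild-type library, by the smallest margin for CR43651. CR17025, CR43651 and CR43650 reached the level through the knockout libraries, so their knockout means had to be higher.

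Long hairpin RNAs, the transcripts of inverted repeats that Dicer-2 cuts into endogenous siRNAs, were read as a list of 5 genes, 2 of them among the 55. CR18854, the most abundant, lies on 2L (9787279 to 9790745, minus strand). It stood at 295, 281 and 298 FPKM in wild type and 328, 349 and 326 FPKM in the knockout. The groups did not overlap, and the rise was small (log2 0.20, SE 0.0414, adjusted p = 0.0017). IP3K1, which shares 1221 nt with it on the other strand, rose (log2 0.32), and CG4036, which shares 79 nt, fell (log2 -0.55). CR32207 stood at 5.25, 4.73 and 5.12 FPKM in wild type and 3.64, 6.70 and 5.72 FPKM in the knockout. Its wild-type libraries fell inside the knockout range (log2 0.04, adjusted p = 0.819). Without knockout library 1 it passed as higher (log2 0.26, adjusted p = 0.0395), and without knockout library 2 or 3 its log2 was -0.11 or -0.01.

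The other 3 hairpin genes were not among the 55. CG4068, the best studied fly hairpin gene, rose from 50.1 ± 0.800 to 73.1 ± 1.15 FPKM (log2 0.54, SE 0.0391, adjusted p = 9.26e-07). CR33940, listed as pncr009:3L, rose from 1.28 ± 0.242 to 2.90 ± 0.353 FPKM (log2 0.78, adjusted p = 0.000126). CR32205 averaged 0.0781 FPKM in wild type and 0.172 FPKM in the knockout, on at most 6 fragments a library, and was not tested. Of the 4 hairpin genes tested, 3 rose, where 30.0% of all tested genes did.

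Of the 2 transcripts that hold a snoRNA gene, 1 fell and 1 did not pass. CR42491, on X, holds snoRNA:Psi18S-531, named for a pseudouridine in 18S rRNA, and had the largest fall of the 55. It stood at 125, 113 and 108 FPKM in wild type and 83.1, 86.7 and 79.7 FPKM in the knockout (log2 -0.47, SE 0.0559, adjusted p = 3.76e-05), and the groups did not overlap. It shares its whole span with the ribosomal protein gene RpL22 on the same strand, which averaged 1932 ± 79.4 FPKM in wild type and 1791 ± 102 in the knockout (log2 -0.11, adjusted p = 0.0983). Reads of such nested genes may be divided either way. CR31144, antisense to RpL3, stood at 3.29, 10.7 and 4.84 FPKM in wild type and 4.42, 12.04 and 3.17 FPKM in the knockout (log2 0.00, SE 0.628). The second library was high in both groups, and this RNA had the widest error of the 55.

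The largest rise on the log2 scale was that of a small nuclear RNA gene, as read in libraries of polyadenylated RNA. CR43708, annotated as snRNA:LU with 116 nt on 2L (3046746 to 3046904, plus strand), stood at 6.78, 9.61 and 7.91 FPKM in wild type and 19.99, 28.03 and 15.9 FPKM in the knockout (log2 1.27, SE 0.195, adjusted p = 0.00076). The groups did not overlap. The ratio of 163 to 66 fragments per library total was 2.68, with an exact 95% interval of 2.00 to 3.63 from counting error alone. The gene lies within v(2)k05816 on the same strand, which averaged 0.151 FPKM in wild type and 0.162 in the knockout. CR43708, CR17025 and CR32218 were the 3 RNAs called with at least a 2-fold change on log2(FPKM + 1), all higher, where 3.86% of all tested genes were called with such a change. Of the 3, CR17025 had reached the level through the knockout libraries and so had to be higher there.

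Most of the RNAs share their span with another gene. By the locus column, 34 of the 55 overlap a listed gene. Of these, 26 lie on the opposite strand of it, 7 on the same strand, and for CR43496 the strand of its neighbour CG14438 was not matched. The library kit keeps strand, but no source used here says whether strand entered the counting, so the value of an overlapping RNA may include reads of its partner. Of the 26 on the opposite strand, 12 rose and 4 fell, and of the 7 on the same strand, 4 rose and 2 fell, beside 30.0% higher and 31.0% lower over all tested genes. Of the 21 that overlap no listed gene, 10 rose and 1 fell, so that 47.6% of them were called higher, beside 47.1% of the 34 that overlap. In the newer BDGP6 annotation, 13 of the 55 have a longer span than in the files, and a coding gene overlaps 4 of these 21. Of the other 17, 8 rose and 1 fell. Among the rises counted by overlap, CR43651 and CR43650, without overlap, had reached the level through the knockout libraries. So had CR17025 and CR43471, on the opposite strand, and the knockout means of all of these had to be higher.

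Pairs of RNA and partner were examined side by side where both were tested, which gave 29 pairs. Across these pairs, which are not independent replicates and share their libraries, log2 differences correlated with a Pearson r of 0.426 and a Spearman rho of 0.465. The differences had the same sign in 19 pairs. Both were called in 16 pairs, 12 in the same and 4 in opposite directions. The partner was the more abundant in 20 of the 29. For the 21 opposite-strand pairs r was 0.541, and for the 7 same-strand pairs it was 0.0283.

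**Figure D4:**
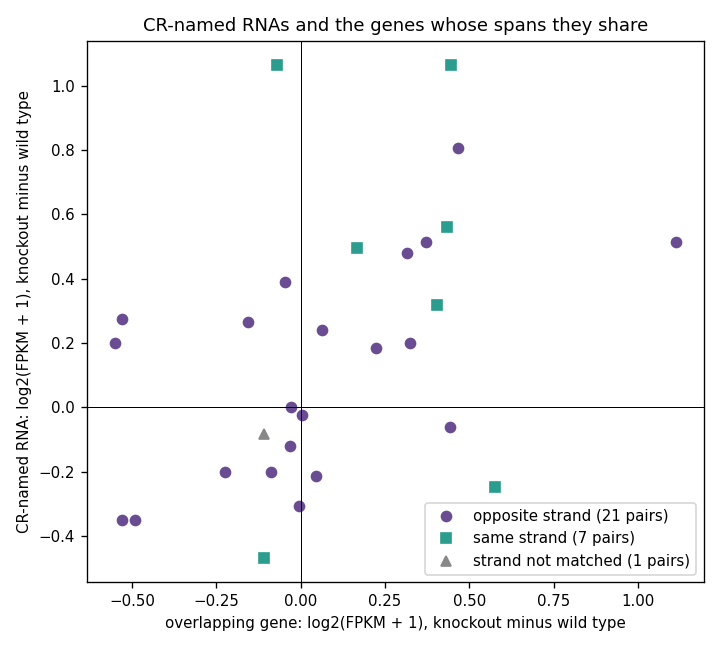
Log2 difference of each RNA against that of the tested gene whose span it shares (purple: opposite strand, 21 pairs; green: same strand, 7 pairs; grey: strand not matched, 1 pair). Points in the upper left and lower right are pairs with opposite signs, such as CR32027 with Indy.

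Several opposite-strand RNAs moved with their partner. CR43723 stood at 4.19, 4.84 and 4.44 FPKM in wild type and at 8.76, 8.47 and 8.55 FPKM in the knockout (log2 0.81, SE 0.0716, adjusted p = 4.23e-06), a clean separation. Coop, a corepressor gene of Wingless signalling that shares 231 nt with it, rose with a log2 of 0.47. CR43257 stood at 19.5, 18.1 and 20.6 FPKM in wild type and 15.2, 15.02 and 14.7 FPKM in the knockout (log2 -0.35, adjusted p = 0.000407). Both its partners fell, Orc4, an origin recognition subunit gene, by 0.49 and ETH, the ecdysis-triggering hormone gene, by 0.53 on the log2 scale. CR43767 fell from 30.5 ± 1.67 to 26.4 ± 1.29 FPKM (log2 -0.20, adjusted p = 0.00977), and Tango14 fell by 0.22. The call of CR43767 was lost with voom (adjusted p = 0.0689) and in the authors' deposited table (adjusted p = 0.156), at the upper end of 0.00628 to 0.156 over its alternatives. CR43468 rose (log2 0.52), as did its partners CG3814 (log2 1.11) and Nmda1 (log2 0.37), and CR30055 (log2 0.18) rose with the corepressor gene Sin3A (log2 0.22). CR30055 was not called in the authors' deposited table (adjusted p = 0.148).

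CR32027 and CR43493 went against a more abundant partner. CR32027 stood at 16.9, 16.6 and 18.1 FPKM in wild type and at 20.9, 23.2 and 19.0 FPKM in the knockout (log2 0.27, adjusted p = 0.00679), with no overlap of the groups. Indy, a citrate transporter gene that spans all of it on the other strand, fell from 245 ± 5.85 to 170 ± 2.96 FPKM (log2 -0.53). CR43493 rose from 7.35 ± 0.264 to 9.03 ± 0.240 FPKM (log2 0.27, adjusted p = 0.00382) within l(1)G0196, which fell (log2 -0.16). In a further pair the partner showed no call. CR43256 fell from 2.30 ± 0.182 to 1.67 ± 0.0416 FPKM (log2 -0.31, adjusted p = 0.0126), and gus, on the other strand, did not pass (log2 -0.0055, adjusted p = 0.938). This call rests on 9.96 to 16.2 effective fragments per library, and the authors' deposited table gave CR43256 a log2 of 0.12 instead.

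Some opposite-strand RNAs have a partner below 1 FPKM. Of these, CR17025, CR43159, CR43465 and CR43471 rose, CR43264 fell, and CR43417, CR43469 and CR43701 did not pass. CR17025 and CR43471 had reached the level through the knockout libraries, so their knockout means had to be higher. CR43159, across yellow-k, went from 0.823 ± 0.0614 to 1.36 ± 0.181 FPKM, and CR43465, across Ucp4B, which was at 0 in every library, from 0.592 ± 0.227 to 1.07 ± 0.268 FPKM. CR43465 was the 1 called RNA whose groups overlapped. CR43471, across CG34316, stood at 0.166, 0.314 and 0.355 FPKM in wild type and 1.05, 0.847 and 0.714 FPKM in the knockout (log2 0.55, adjusted p = 0.00218). Its groups were apart, and the ratio of 32 to 11 fragments per library total was 3.16 (exact 95% interval 1.55 to 6.95, counting error only). It was not called in the authors' deposited table.

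Among same-strand RNAs, CR32218 rose most. It lies on 3L (19888316 to 19889490, minus strand) within both Su(Tpl), a transcription elongation factor gene, and Mi-2, a chromatin remodeller gene. It stood at 9.51, 8.99 and 7.79 FPKM in wild type and 22.7, 16.1 and 19.8 FPKM in the knockout, a 2.23-fold difference (log2 1.06, SE 0.109, adjusted p = 1.25e-05) on 232 to 531 fragments. The groups were well apart. Su(Tpl) rose with a log2 of 0.45 and Mi-2 did not pass (log2 -0.07). CR42549 rose from 21.8 ± 1.92 to 32.6 ± 2.46 FPKM (log2 0.56, adjusted p = 6.07e-05) within mura, which rose by 0.44. CR33963 rose (log2 0.50) within Tis11, an mRNA decay factor gene whose own log2 was 0.17.

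Among RNAs with no overlapping gene in the files, CR43481 stood at 14.8, 17.5 and 16.1 FPKM in wild type and at 32.1, 31.7 and 30.6 FPKM in the knockout (log2 0.92, SE 0.0618, adjusted p = 4.5e-07), with wide separation. It lies on 3L (9373013 to 9374219, plus strand), 378 nt from the small heat shock gene Hsp67Ba, which rose with a log2 of 0.98. In the BDGP6 annotation its span is 2960 nt, against 1207 nt in the files, and overlaps Hsp67Ba on the other strand, so that reads may be shared there. CR42861 stood at 5.56, 4.39 and 5.65 FPKM in wild type and 7.14, 8.502 and 9.73 FPKM in the knockout (log2 0.61, adjusted p = 0.000835). It does not overlap CG10990 but ends 100 nt from it, and CG10990 rose (log2 1.05). CR43148 rose (log2 0.40) 399 nt from Df31, which fell (log2 -0.38). CR31451, annotated as mimi, rose from 0.625 ± 0.104 to 1.19 ± 0.180 FPKM (log2 0.43). The 1 fall was CR43242, from 15.8 ± 0.708 to 13.6 ± 0.736 FPKM (log2 -0.20, adjusted p = 0.0169), a call that was lost without wild-type library 1 (log2 -0.16) and without knockout library 3 (log2 -0.15).

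The 22 RNAs that did not pass had log2 differences between -0.27 and 0.39. CR43241 was the most abundant of them, at 33.4, 39.0 and 44.1 FPKM in wild type and 39.2, 37.8 and 38.8 FPKM in the knockout, with the wild-type libraries on both sides of the knockout ones. CR43496 averaged 23.0 ± 0.930 and 21.7 ± 0.893 FPKM and CR43685 14.97 ± 0.646 and 13.7 ± 1.59 FPKM. CR43653, annotated as Irar and antisense to the insulin receptor gene InR, averaged 2.70 ± 0.467 and 2.63 ± 0.149 FPKM, and InR itself was 0.00 on the log2 scale. CR43628, annotated as ASTR, averaged 0.897 ± 0.200 and 0.847 ± 0.432 FPKM across Rga, which rose (log2 0.44).

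Of the rest of those not called, CR43656, CR43461 and CR43629 averaged between 2 and 10 FPKM and overlap genes on the other strand. CR43301 and CR43399 did not pass although their groups did not overlap, with log2 differences of 0.18 and 0.32. CR43730, CR43469, CR43417, CR43701, CR33218, CR43727, CR43457, CR43704, CR43765 and CR43769 all averaged under 2 FPKM. Of these, CR43701 rests on at most 2 fragments a library, CR43457 on at most 6 and CR43704 on at most 18, and CR43765 was at 0 in knockout library 1.

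**Figure D5:**
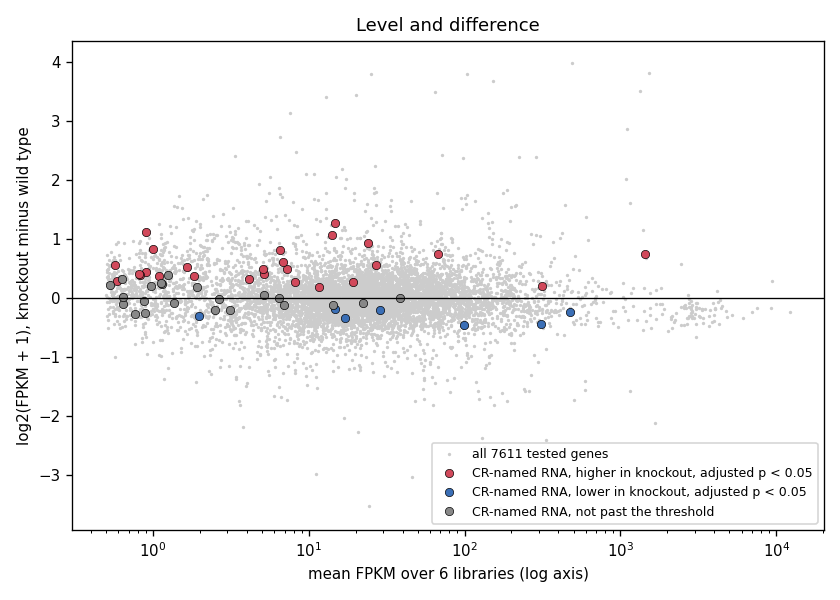
Log2 difference between knockout and wild type against mean FPKM over the 6 libraries (log axis) for all 7611 tested genes (light grey) and the 55 RNAs (red: called higher; blue: called lower; dark grey: not past the threshold). Of the 7 falls, 6 lie at 10 FPKM or more.

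Calls were also counted by level. Among the 18 RNAs of 10 FPKM or more, 9 rose and 6 fell, where 30.4% of all tested genes of that level were higher and 34.6% lower. Among the 13 of 2 to 10 FPKM, 7 rose and 0 fell, where 26.9% of such genes were higher and 26.8% lower. Among the 24 of 0.5 to 2 FPKM, 10 rose and 1 fell, where 33.2% of such genes were higher and 12.1% lower, so that falls were fewer at low levels among genes in general too. These 24 include CR17025, CR43651, CR43650, CR43471, CR43399 and CR33218, which reached the level through the knockout libraries only. Of these, CR17025, CR43651, CR43650 and CR43471 are among the 10 that rose, and their knockout means had to be higher. The spread between libraries narrowed with level, from a median coefficient of variation of 19.4% in wild type and 23.4% in the knockout at 0.5 to 2 FPKM to 6.36% and 4.14% at 10 FPKM or more. Of the 36 RNAs with at least 20 fragments in every library, 19 rose and 6 fell. Over all tested genes 30.0% were higher and 31.0% lower, and the share among genes with as many fragments was not computed. The groups did not overlap in 34 of the 55, with the knockout above in 27 and below in 7. Over all tested genes 66.4% did not overlap, 32.9% with the knockout above and 33.5% below.

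By chromosome, 4 of 10 RNAs rose and 2 fell on 2L, 5 of 11 and 2 on 2R, 6 of 10 and 1 on 3L, 6 of 13 and 0 on 3R, and 5 of 11 and 2 on X. Over all tested genes, 28.4% to 33.5% were higher and 28.3% to 32.9% lower on these arms. By annotated class, 17 of 36 lncRNAs rose and 5 fell, and 7 of 14 antisense RNAs rose and 2 fell, beside 30.0% and 31.0% of all tested genes. Among the rises, CR43651 and CR43650 are lncRNAs on 2R, and CR17025 and CR43471 are antisense RNAs on 3R. All of these had reached the level through the knockout libraries, so their knockout means had to be higher.

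The authors' deposited table, a comparison on counts, listed all 55 RNAs and gave 27 of them an adjusted p under 0.05, 22 higher and 5 lower, where 36.0% of its 11643 genes passed, 17.7% higher and 18.3% lower. All 27 were also called by limma, in the same direction, and 6 were called by limma alone. The 22 higher include CR17025, CR43651 and CR43650, which had reached the level through the knockout libraries. The fold differences of low RNAs were larger there, since no pseudocount shrinks them: in the authors' deposited table the log2 was 2.74 for CR17025, 2.06 for CR43651, 0.85 for CR31044 and 0.80 for CR43650.

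Noncoding RNAs with other kinds of name were read from a separate list of 71 genes, of which 15 reached the level. Of these, 7 rose and 1 fell, so that 53.3% were called, beside 61.0% of all tested genes. The 7 include pncr009:3L, already described with the hairpin genes. In the BDGP6 annotation pncr013:4 and pncr011:3L carry CG and not CR names, CG33941 and CG33947, and neither was called. The heat-inducible alphagamma-element:CR32865 rose by 3.79 on the log2 scale and Hsromega, a nuclear stress RNA, by 1.55. RNaseMRP:RNA, which serves in rRNA processing, rose from 3.49 ± 1.13 to 8.95 ± 1.03 FPKM (log2 1.17, adjusted p = 6.11e-05). Those values rest on 20 to 66 fragments a library, and copies without a poly(A) tail are not selected in such libraries. The snoRNA host genes Uhg5, Uhg4 and Uhg1 rose by 0.49, 0.35 and 0.28. Uhg2 (log2 -0.09, adjusted p = 0.144), Uhg3 (log2 0.0053, adjusted p = 0.941) and Uhg8 (log2 0.15, adjusted p = 0.257) did not pass. The 1 that fell was roX2, an RNA of the male dosage compensation complex, from 263 ± 2.55 to 154 ± 1.23 FPKM (log2 -0.77, adjusted p = 1.38e-08). The other roX RNA, roX1, did not fall. It averaged 0.375 ± 0.0331 and 0.635 ± 0.0927 FPKM, without overlap of the groups, and did not pass (log2 0.25, adjusted p = 0.0641). It reached the level through the knockout libraries, so its knockout mean had to be higher.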

How the data were processed

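Deposited per library was a table with 1 FPKM value per gene, its confidence interval and a status, in Cufflinks format per the file headers. In the comparison table that the authors deposited, whose columns are named as in DESeq per its header, are group means of normalised counts (signal), a fold ratio and the log2 of it, and p-values before and after adjustment. Its ratio is wild type over knockout, so signs were turned. The submitters' processing notes name DESeq 1.10.1, HTSeq 0.6.1p1, Cufflinks 1.3.0, TopHat 1.4.1 and BWA 0.6.1, with no roles. Not given in the sources used here are the genome build, the annotation and the strand of counting, and coordinates are the files' own, 1-based.

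The per-library tables give FPKM and not counts, so the 7611 genes that averaged 0.5 FPKM or more were tested on log2(FPKM + 1), which understates changes of low genes, with limma 3.58.1 in R 4.3.3 (lmFit, eBayes with trend and robust settings, 3 against 3 libraries, two-sided). Benjamini-Hochberg adjustment covered all tested genes at a threshold of 0.05. Fold differences are ratios of mean FPKM unless given as log2. Fragment numbers were recovered from the interval by dividing 2 times the FPKM by the distance from it to the upper bound and squaring the result. For single-transcript genes, 92.9% to 93.4% of the numbers below 25 came out within 0.02 of whole. With several transcripts the number is only effective. Intervals on fragments cover counting error only and are approximate for genes with several transcripts.

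Strand, exon length and class came from the Ensembl annotation of BDGP6 (52 RNAs matched by identifier, 3 by symbol) and, for class and microRNA and snoRNA genes inside, from RefSeq Release 6 (55 matched). These gene models can differ from the ones the authors used. No sequence was used.

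Members and gene lists were chosen with earlier results of these data known. Named genes were CG1091, the 10 largest rises and falls among called members, the 6 highest, up to 4 called without overlap, hairpin genes, up to 4 holders of microRNA and of snoRNA genes, those at the level's edge, up to 6 other noncoding RNAs and the genes that overlap them. Further members, and further noncoding RNAs with other kinds of name, were named after their values were seen. Simulated data for the 7611 genes carried changes set on FPKM + 1, in genes drawn from all tested levels. Changes of 1.25-fold were called in 32 of 50 genes, of 1.5-fold in 46, of 2-fold in 49 and of 4-fold in 49. Of 7411 genes without a change, 14 were called. These shares were not worked out for low genes alone, where a change in FPKM + 1 is a larger change in FPKM. Libraries shared identical FPKM in at most 0.039% of tested genes. Alternatives were pseudocounts of 0.1 and 5, other filters, median scaling, quantile normalization, plain eBayes, the replicate block, leaving out each replicate, voom on recovered fragments, status and overlap restrictions and the authors' deposited table. Python 3.11.15 with matplotlib 3.10.9 served for tables and figures.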

Additional observations from a re-analysis of the deposited data

How the results depend on the processing

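The count of RNAs called, 33 of 55, was 30 to 33 when 1 library was left out, with 23 to 26 higher and 6 to 8 lower. RNAs that overlap no listed gene gave 11 called, 10 higher and 1 lower, which follows from the smaller number of RNAs. The 10 include CR43651 and CR43650, which had reached the level through the knockout libraries and so had to be higher there. At least 2-fold changes numbered 5 with a pseudocount of 0.1, 0 with 5, 6 with voom and 5 in the authors' deposited table, and 2 to 3 with 1 library left out. The median log2 of the 55 was 0.37 with a pseudocount of 0.1, 0.0912 with 5 and 0.355 with voom, 0.136 with quantile normalization, where 28 were called, 20 higher and 8 lower, and 0.19 to 0.26 with 1 library left out; the pseudocount acts on low values, and the cause under voom and quantile normalization was not tested. RNAs with a microRNA or snoRNA gene called numbered 7, but 3 at a mean of at least 1 FPKM, where fewer were tested, and 4 with quantile normalization, where the cause was not tested. Those with a microRNA gene that rose were 6, then 2 and 3 in those settings, and 5 to 6 with 1 library left out. Of the 6, CR17025, CR43651 and CR43650 had reached the level through the knockout libraries and so had to be higher there. Over all tested genes together, replicate numbers did not pair the libraries: same-numbered libraries deviated with correlations of -0.043, 0.0085 and -0.017. Such correlations cannot exclude a pattern shared by number in single RNAs. CR34335 was lowest in library 3 and CR31144 highest in library 2 of both groups. With the replicate block 33 RNAs were called, 26 higher and 7 lower. CR43650 was lost there. Signs turned for CR43256 in the authors' deposited table (0.12), for CR32207 without knockout library 2 (-0.11) or 3 (-0.01), and for CR31144, whose log2 was near 0, with a pseudocount of 0.1 (-0.0058), quantile normalization (-0.024), the authors' deposited table (-0.14) and without wild-type library 1 (-0.31) or 3 (-0.09) or knockout library 2 (-0.48), up to 0.41 without wild-type library 2. Without knockout library 1, CR32207 passed as higher (log2 0.26). Over single genes, 597 of the repeats left direction and call as they were, 17 lost the call, 1 gained it and 9 turned the sign. For RNAs under 2 FPKM, fragment numbers set the precision.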
